A study of Mus musculus with 6 samples.

Results

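The regions described here are the stretches of open chromatin that had the most signal in memory group 2 innate lymphoid cells (ILC2s) of the mouse lung, relative to both effector and naive ILC2s. ATAC-seq, which uses the Tn5 transposase to cut and tag open DNA, gave the counts. Each count was scaled to CPM, the count per 1000000 counts of its library over all regions. A region was taken where its mean CPM in memory cells was 5 or more and its lower memory library was at least 1.3 times the highest of the 4 effector and naive libraries. That rule kept 126 of 57203 regions, or 0.220%, and 0.426% of the 29545 regions with a mean memory CPM of 5 or more.

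Each of the 3 states had 2 libraries, and every library was made from its own pool (some 50000 cells, 2 to 4 mice), so the libraries are biological replicates. All mice were wild-type, and female unless the submitters stated otherwise. For memory cells, mice received papain, a protease allergen, into the nose at 30 µg per day over 3 days and then rested for 2 months. For effector cells, mice received the same dose of papain over 3 days with no rest, and for naive cells they received PBS over 3 days. All cells were gated as Lin-CD25+ST2+ from the lung, so a memory library holds every cell of that gate at 2 months, with no mark of which cells had answered papain. No library of rested mice without papain is among the 6, so time after treatment and the earlier papain cannot be told apart in the memory cells. In such bulk libraries a region that is more open in each cell and one that is open in more of the cells cannot be told apart either. Totals in the regions were 11995095 and 20591102 counts in memory, 14872821 and 16397249 in effector, and 12964912 and 16910329 in naive libraries. The most covered region inside Gata3, which encodes the lineage-defining factor of ILC2s, had 109 and 111 CPM in memory, 116 and 104 in effector and 96.1 and 108 in naive libraries. The most covered region assigned to Il1rl1, which encodes the sorting marker ST2, had 57.9 and 56.9, 69.8 and 67.5, and 43.6 and 49.5 CPM in memory, effector and naive libraries.

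ILC2s are lymphocytes without antigen receptors that live in tissues such as the lung and answer alarmins, above all IL-33, with the type 2 cytokines IL-5 and IL-13. Papain damages the airway epithelium and releases such alarmins. Cells that outlast the response can react more strongly to a later, unrelated challenge, and they are called memory or trained ILC2s although no antigen receptor is involved. Open chromatin marks promoters and enhancers that transcription factors can reach, and enhancers often lie inside introns or far from the gene they act on. The gene given for a region below is its nearest protein-coding gene within 100 kb, and whether the region acts on that gene was not measured.

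Of the memory regions, 5 overlapped a promoter window of the RefSeq table, which is not complete. A window runs from 250 bases before to 50 bases after a start (GRCm38.p6, the mm10 build). All 5 windows are shown because they are the sequence available here for these regions. The first lay in the memory region with the highest ratio to the other states, chr13:83119880-83121264, at the start of Gm33073 on the minus strand (chr13:83120488-83120787). Those of LOC108169147 (chr6:65525085-65525384, plus strand), Gm16702 (chr17:8389419-8389718, minus strand) and Gm36148 (chr1:64516551-64516850, plus strand) also lay in memory regions, and no role is given to these loci here. Of the window of Gpsm3, which encodes a modulator of G-protein signalling, 119 bases fell inside the memory region (chr17:34589737-34589855, plus strand). Each is written 5′ to 3′ on the strand of its gene, with capitals for exact matches on either strand to TGTGGT (the core of RUNX sites), GATAA (GATA) or AGGAAGT (ETS). In Gm33073 the TGTGGT match and the reverse GATAA match share a base.
Gm33073: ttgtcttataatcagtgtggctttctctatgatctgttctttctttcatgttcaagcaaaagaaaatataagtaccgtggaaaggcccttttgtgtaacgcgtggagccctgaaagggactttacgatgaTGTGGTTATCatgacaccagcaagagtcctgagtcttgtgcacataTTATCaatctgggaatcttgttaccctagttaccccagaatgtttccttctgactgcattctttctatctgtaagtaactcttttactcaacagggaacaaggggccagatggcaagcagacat
LOC108169147: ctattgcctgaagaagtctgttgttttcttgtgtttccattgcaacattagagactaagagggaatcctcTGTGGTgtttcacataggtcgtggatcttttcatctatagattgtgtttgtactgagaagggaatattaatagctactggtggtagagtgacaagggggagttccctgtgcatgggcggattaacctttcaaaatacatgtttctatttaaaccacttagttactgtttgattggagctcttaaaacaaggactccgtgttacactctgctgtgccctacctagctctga
Gm16702: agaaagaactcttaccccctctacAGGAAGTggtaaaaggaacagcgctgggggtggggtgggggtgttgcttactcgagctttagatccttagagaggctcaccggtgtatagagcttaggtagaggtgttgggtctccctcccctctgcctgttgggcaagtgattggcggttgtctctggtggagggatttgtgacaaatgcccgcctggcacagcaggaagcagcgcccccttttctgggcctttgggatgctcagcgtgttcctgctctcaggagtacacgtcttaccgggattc
Gm36148: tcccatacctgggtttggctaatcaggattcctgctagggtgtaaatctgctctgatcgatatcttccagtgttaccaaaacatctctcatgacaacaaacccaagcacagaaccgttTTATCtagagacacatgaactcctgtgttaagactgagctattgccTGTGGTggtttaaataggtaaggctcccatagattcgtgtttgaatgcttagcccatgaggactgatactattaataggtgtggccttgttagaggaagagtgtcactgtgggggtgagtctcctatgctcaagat
Gpsm3: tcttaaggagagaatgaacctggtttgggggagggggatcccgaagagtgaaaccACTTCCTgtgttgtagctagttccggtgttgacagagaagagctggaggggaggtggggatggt

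TGTGGT stood in the windows of Gm33073, LOC108169147 and Gm36148, which is 3 of 5, and in 16.8% of 32851 promoter windows of the table. GATAA matched in Gm33073 and Gm36148, against 25.4% of all windows, and AGGAAGT in Gm16702 and Gpsm3, against 9.35%. No match was found for TGACTCA (AP-1), TGACGTCA (CRE), CACGTG (E-box), GGGCGGG (SP and KLF factors) or TTCNNNGAA (STAT), which stood in 5.20%, 1.79%, 7.15%, 25.6% and 8.30% of all windows. A match is only a match of letters, and 5 windows, 1 of them cut short, are too few to compare with the table. The GC content of the windows of Gm33073, LOC108169147 and Gm36148 was 41.7%, 41.3% and 44.3%, and that of Gm16702 and the stretch of Gpsm3 56.0% and 53.8%, with a median of 52.7% over all windows.

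The levels that chose the regions were modest and their margins narrow. The ratio of the lower memory library to the highest other library ran from 1.3 to 2.23 with a median of 1.39. It was under 1.4 at 66 regions, 1.5 or more at 34 and 2 or more at 3. Mean memory CPM ran from 5.01 to 67.5 with a median of 12.2, against medians of 6.32 CPM in effector and 6.45 CPM in naive cells. It was under 10 at 53 regions and 30 or more at 16. The summed level of the 126 regions was 1918 and 2140 CPM in memory, 1015 and 1140 in effector and 1126.5 and 1202 in naive libraries. Single regions held at least 44 and 95 counts in memory, 14 and 26 in effector and 7 and 20 in naive libraries. Memory replicate 2 was above memory replicate 1 at 86 of the regions, and at 15 the pair was more than 1.5-fold apart.

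**Figure D1:**
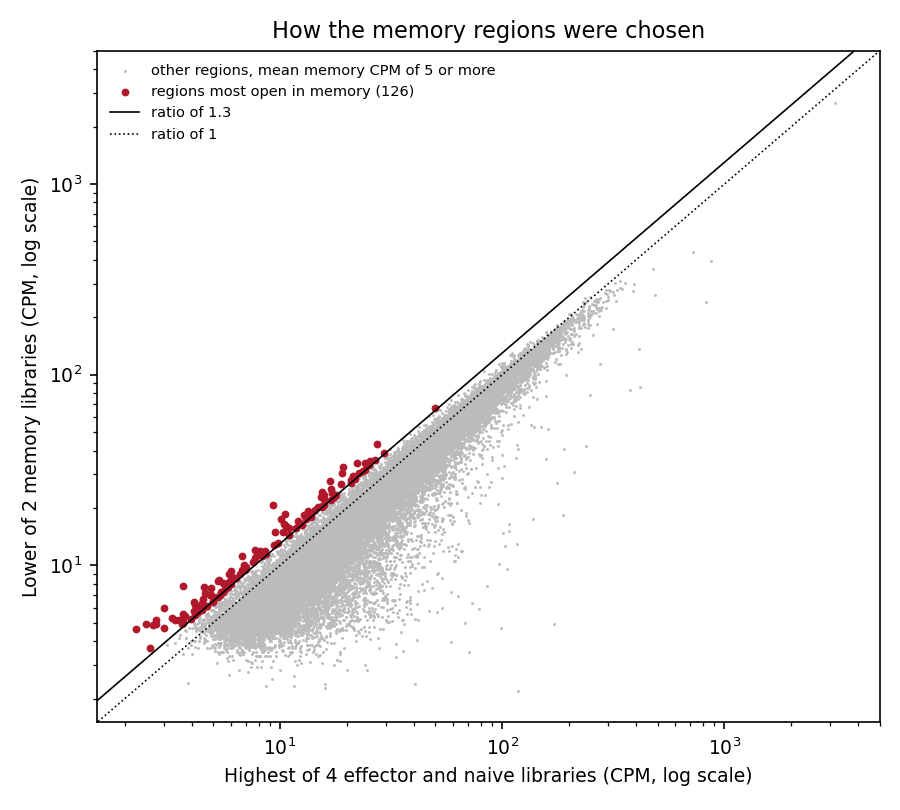
Lower memory CPM against the highest of the 4 effector and naive CPM (both log scales) for the 29545 regions with a mean memory CPM of 5 or more, with the 126 chosen regions in red. The chosen regions lie just above the line of a ratio of 1.3, and 10.2% of the plotted regions lie above the line of a ratio of 1.

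The cut of 1.3 runs through a crowded band. Just inside it were regions in Mapk14 (the stress kinase p38α), Ppa1 (an inorganic pyrophosphatase) and Trappc8 (a vesicle tethering subunit), each at 1.3. Just outside were regions assigned to Nup35 (a nuclear pore protein) at 1.299, St6galnac3 (a sialyltransferase) at 1.297 and Ankrd6 at 1.296. At the cut on level, regions in Arid1a, near Tlk1 and 391.1 kb from Tusc1 had mean memory CPM of 5.12, 5.11 and 5.01, and regions assigned to Sec31a (4.94), Cav2 (4.90) and a region on chromosome 12 with no gene within 100 kb (4.87) fell just short. By the same rule turned to the other states, 4237 regions were most open in effector cells and 93 in naive cells.

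By ratio, the leading region (chr13:83119880-83121264) lay far from protein-coding genes, 382.8 kb from Mef2c, the nearest protein-coding gene, which encodes a MADS-box transcription factor. It had 20.7 and 28.8 CPM in memory, 9.28 and 8.54 in effector and 4.55 and 5.56 in naive libraries. Memory libraries were highest, naive libraries lowest, and effector libraries in between without overlap. Its memory level was 2.314 ± 0.23 above naive and 1.59 ± 0.22 above effector on the log2 scale (edgeR fold change, SE). The rule used the same libraries, so these values describe the choice and are no test of it. A neighbouring region 3.71 kb away that did not meet the rule was 2.24 above naive and 1.41 above effector on the same scale. A second memory region of chromosome 13 (chr13:83055945-83057035, 446.98 kb from Mef2c) had 4.92 and 5.73 CPM in memory, 2.76 and 1.95 in effector and 1.31 and 1.42 in naive libraries, in the same order of states.

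Regions near Sik1 and in Trp53inp1 were the other well covered ones among the 10 highest ratios. Sik1 encodes a salt-inducible kinase that acts on CREB coactivators, and its region (70.3 kb away) had 17.4 and 26.8 CPM in memory, 4.98 and 7.87 in effector and 8.72 and 10.1 in naive libraries. The effector libraries were the lowest of the 6 there. Trp53inp1, a stress gene induced by p53, held a region with 18.5 and 24.96 CPM in memory, 9.28 and 10.1 in effector and 10.5 and 10.2 in naive libraries, with effector and naive values close together. The other 6 had mean memory CPM between 5.01 and 7.998. A region near Rd3, known for its role in photoreceptors, had 7.84 and 8.16 CPM in memory, 2.02 and 3.66 in effector and 2.24 and 3.67 in naive libraries. Near Olfr960, an olfactory receptor gene, the region had 5.92 and 4.61 CPM in memory, 1.34 and 1.95 in effector and 2.24 and 1.77 in naive libraries. The region 0.581 kb from Dlc1 had 6.002 and 7.19 CPM in memory, 1.14 and 2.01 in effector and 2.62 and 3.02 in naive libraries. Both effector libraries were under both naive libraries there. Clec2d encodes a C-type lectin-like ligand of NK cell receptors, and its region had 4.92 and 6.12 CPM in memory, 0.941 and 2.5004 in effector and 2.314 and 2.37 in naive libraries. The region in Ppp1r21 had 5.75 and 5.20 CPM in memory, 2.76 and 2.74 in effector and 2.08 and 2.25 in naive libraries, and that far from Tusc1 5.17 and 4.86 CPM in memory, 2.69 and 2.38 in effector and 2.62 and 2.42 in naive libraries. At these 6 regions every effector and naive library was under 4 CPM and every memory library above it.

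By level, the most open memory region lay near Ndfip1, and 8 of the 10 most open had a gene within 100 kb. The region 37.1 kb from Ndfip1, an adaptor of NEDD4-family ubiquitin ligases, had 68.5 and 66.5 CPM in memory, 43.9 and 45.4 in effector and 49.9 and 42.3 in naive libraries. Its ratio was 1.33, close to the cut. A region in Sncaip, which encodes the synuclein partner synphilin-1, had 44.8 and 43.2 CPM in memory, 27.4 and 23.6 in effector and 24.99 and 24.4 in naive libraries. Rnf125, an E3 ubiquitin ligase gene, held a region with 40.7 and 34.2 CPM in memory, 10.2 and 15.2 in effector and 23.9 and 24.2 in naive libraries, in which effector libraries were the lowest. The region 4.48 kb from Actb, the cytoplasmic actin gene, had 41.6 and 38.8 CPM in memory, 23.9 and 24.8 in effector and 26.2 and 29.3 in naive libraries. The others of the 10 were in St3gal2 (a sialyltransferase), in Mvb12b (an ESCRT-I subunit), at Lrrn3 (a neuronal membrane protein whose gene lies within Immp2l), near Rbpj, 126.2 kb from Klf14 and 207.2 kb from Snx16. Their mean memory CPM ran from 34.1 to 37.1, and their ratios from 1.33 to 1.70.

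The other 4 memory regions with a printed window had lower margins. The region with the start of LOC108169147 had 7.67 and 8.55 CPM in memory, 2.82 and 4.09 in effector and 3.55 and 4.55 in naive libraries. That with Gm16702 had 25.01 and 26.5 CPM in memory, 10.4 and 13.4 in effector and 15.3 and 16.97 in naive libraries, and both effector libraries were under both naive libraries. The region with Gm36148, with 7.003 and 7.92 CPM in memory, 3.29 and 2.74 in effector and 4.86 and 4.91 in naive libraries, had the states in the same order as Gm16702. The region at Gpsm3 had 7.67 and 8.06 CPM in memory, 5.58 and 5.85 in effector and 5.09 and 4.73 in naive libraries, with effector slightly above naive libraries. Their ratios were 1.68, 1.47, 1.43 and 1.31, against 2.23 at Gm33073.

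**Figure D2:**
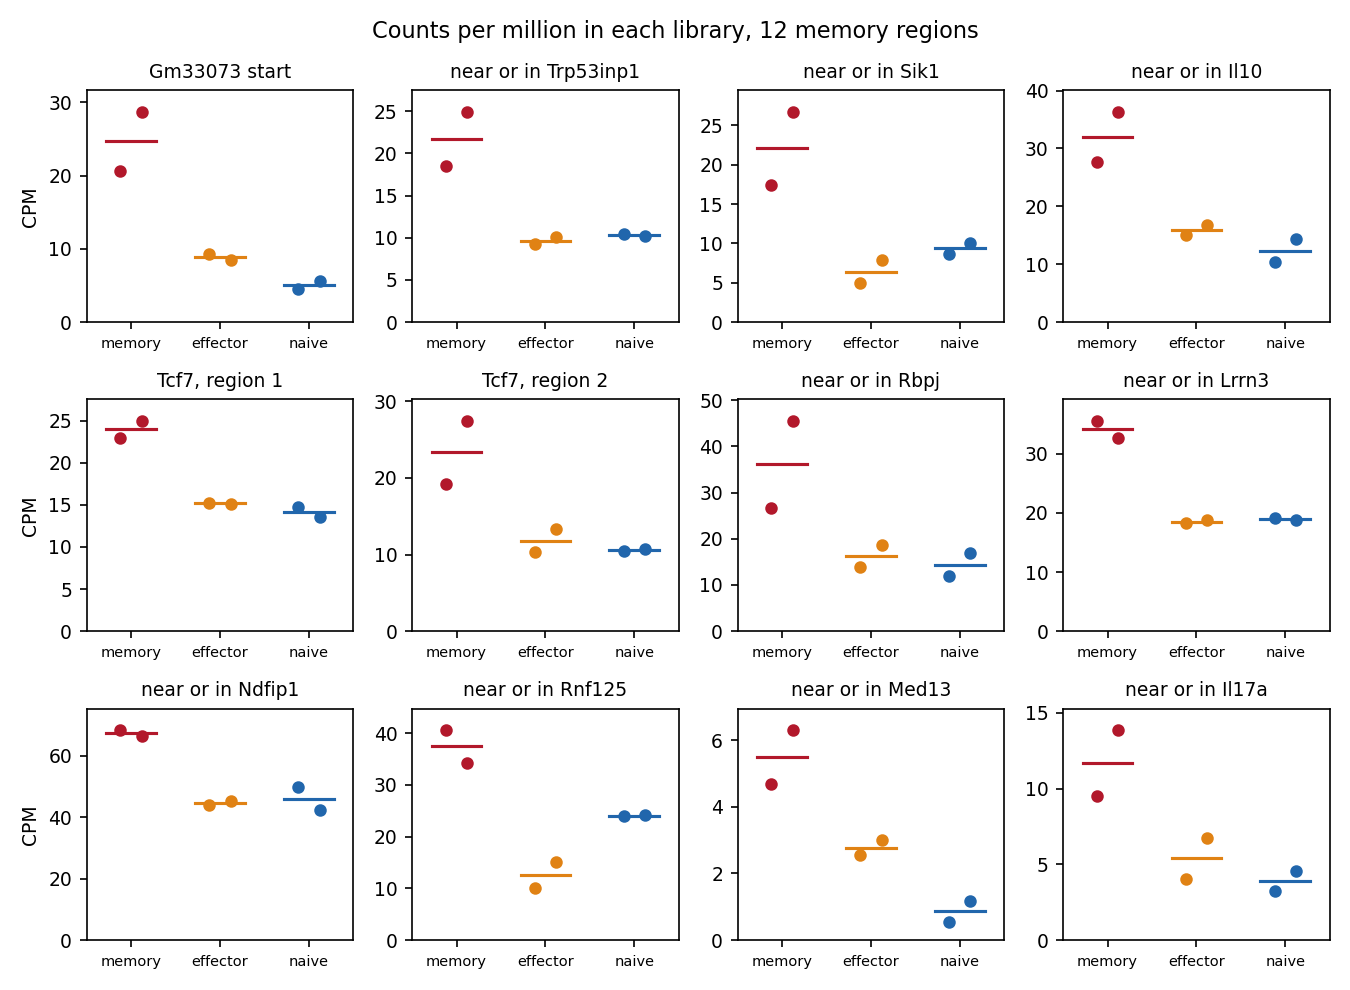
CPM in each of the 6 libraries (points) and group means (bars) at 12 memory regions, with memory left of effector and naive. Both memory points lie above all others in every panel because the rule requires it, while effector lies above naive at Gm33073 and Med13 and below it at Rnf125 and Sik1.

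Genes listed for ILC2, lymphocyte, other cell type or general roles made up a small part of the set. Of 361 genes in 23 lists, 2428 regions were assigned to a listed gene, and 12 of these, 0.494%, were memory regions, against 0.220% of all regions. The share was 0.426% of regions with a mean memory CPM of 5 or more, but the listed regions were not cut by level. The 12 belonged to 10 lists, and 13 lists had none. The 10 included lists of circadian (Hlf), metabolic (Hif1a), chromatin remodelling (Arid1a) and housekeeping (Actb) genes. Lists with none covered immediate early genes with AP-1 and NF-kB (234 regions), lymphocyte memory and quiescence (326), residence and migration (133), TGF-beta receptors and Smads (123), neuropeptide, prostaglandin and leukotriene receptors (117), glucocorticoid targets (89), the cell cycle (76) and the interferon response (36). The other 5 were markers of B cells, T cells, mast cells with basophils, myeloid cells and lung structural cells. Memory regions were only 0.220% of all regions, so lists of these sizes can hold none at that share. Nothing is read from the lists with none. Tcf7, with 2 memory regions, was listed under ILC2 lineage transcription factors and not under lymphocyte memory and quiescence. With TMM-scaled CPM in the rule the number in listed genes was 21.

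Among cytokines and their receptors, the region with the highest ratio was assigned to Il10, which encodes an anti-inflammatory cytokine (chr1:130993064-130994528, 25.3 kb from the gene). It had 27.6 and 36.4 CPM in memory, 14.99 and 16.8 in effector and 10.3 and 14.4 in naive libraries. Memory libraries were 1.399 ± 0.19 above naive and 1.13 ± 0.19 above effector on the log2 scale (SE). As the rule used these libraries, the values describe the choice and do not test it. The region over the gene itself (chr1:131021151-131023363) had 2.83 and 2.14 CPM in memory, 14.9 and 11.2 in effector and 3.24 and 1.83 in naive libraries, so that memory and naive libraries overlapped there and both effector libraries were far above them. Of the 7 regions of Il10 outside the set, 5 were called higher in effector than in naive cells by edgeR's quasi-likelihood test at an adjusted p under 0.05, and 1 had its highest mean in memory. Of all tested regions, 11.5% were called higher in effector cells, and 23.9% of all regions had their highest mean in memory. A region 4.14 kb from Il9r, which encodes the receptor of the ILC2 growth factor IL-9, had 5.92 and 9.42 CPM in memory, 3.03 and 3.17 in effector and 4.47 and 3.90 in naive libraries. Icos encodes a costimulatory receptor, and a region 29.4 kb from it had 12.8 and 11.5 CPM in memory, 8.20 and 7.93 in effector and 8.56 and 8.63 in naive libraries.

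Among transcription factors and chromatin regulators, Tcf7 had 2 memory regions, both inside the gene. Tcf7 encodes TCF-1, a factor required for ILC2 development that also marks long-lived T cells. The first (chr11:52267867-52268926) had 22.9 and 25.01 CPM in memory, 15.3 and 15.1 in effector and 14.7 and 13.6 in naive libraries. The second (chr11:52273676-52276123) had 19.2 and 27.5 CPM in memory, 10.3 and 13.4 in effector and 10.4 and 10.7 in naive libraries. Effector and naive libraries lay close together at the first and overlapped at the second. Another region of the gene (chr11:52260729-52262295) was high in effector cells, with 6.59 and 7.77 CPM in memory, 29.2 and 26.8 in effector and 5.94 and 6.74 in naive libraries. Among the 10 Tcf7 regions outside the set, memory had the highest mean at 7, and the memory over naive log2 fold change ran from −0.11 to 0.71. Memory had the highest mean at 36.2% of regions with a mean memory CPM of 5 or more and 23.9% of all regions. Hlf, a circadian PAR bZIP factor, held a region with 12.8 and 12.7 CPM in memory, 9.35 and 7.20 in effector and 8.41 and 8.46 in naive libraries. Hif1a, the oxygen-sensing factor, held 1 with 22.8 and 28.99 CPM in memory, 13.5 and 17.5 in effector and 17.4 and 17.4 in naive libraries, and Arid1a, a subunit of the SWI/SNF remodelling complex to which Brg1 belongs, held 1 with 5.002 and 5.24 CPM in memory, 2.35 and 3.48 in effector and 3.47 and 3.67 in naive libraries. The Arid1a region lay at the lower edge on level.

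Cblb, an E3 ubiquitin ligase that restrains lymphocyte activation, held a region with 16.7 and 17.5 CPM in memory, 7.60 and 8.48 in effector and 8.79 and 12.1 in naive libraries. Memory regions in 2 genes of DNA methylation were picked out after their values were seen. The region in Dnmt3a, a DNA methyltransferase, had 16.01 and 17.2 CPM in memory, 8.20 and 10.002 in effector and 10.6 and 10.2 in naive libraries, and that in Tet2, which oxidises methylcytosine, had 11.3 and 13.4 CPM in memory, 5.78 and 8.29 in effector and 4.55 and 6.27 in naive libraries. Both effector libraries were under both naive libraries in Dnmt3a, while the 2 states overlapped in Tet2.

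Markers of other lymphocytes had 2 of the 12 regions. A region 9.14 kb from Il17a, the signature cytokine of ILC3s and Th17 cells, had 9.50 and 13.9 CPM in memory, 4.03 and 6.77 in effector and 3.24 and 4.55 in naive libraries. A region 7.56 kb from Klrb1c, which encodes the NK cell receptor NK1.1, had 21.01 and 19.4 CPM in memory, 12.3 and 12.4 in effector and 14.3 and 11.9 in naive libraries. Summed over all regions of the 6 ILC3 marker genes with a region (8 listed), the level was 262 and 301 CPM in memory, 235 and 243 in effector and 196 and 238 in naive libraries. For the 7 of 9 NK and ILC1 genes it was 279 and 271, 264 and 254, and 285 and 251 CPM in the same order. T cell markers, 9 of 13 with a region, summed to 483 and 509, 492 and 510, and 461 and 473 CPM. Cd3e, which defines T cells, had 2.75 and 7.43 CPM at its most covered region in memory, 4.91 and 6.59 in effector and 6.25 and 7.16 in naive libraries. B cell markers, 5 of 8 with a region, summed to 27.8 and 33.9, 55.9 and 59.5, and 42.2 and 40.3 CPM, and Cd79a and Ms4a1 had no region assigned. Myeloid markers (9 of 13) ranged over 395 to 401 CPM in memory, 421 to 431 in effector and 402 to 411 in naive libraries. Mast cell and basophil markers (6 of 9) ranged over 484 to 491, 472 to 497 and 525 to 539, and structural cell markers (15 of 15) over 373 to 376, 423 to 424 and 375 to 387. Il23r and Ncr1, of the ILC3 list, had no region assigned. Memory libraries had the highest ILC3 marker sums. The ILC3 and NK sums include the Il17a and Klrb1c regions, which the rule chose as high in memory. The part of other cells in the memory regions was not tested.

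The 3 states can be set against each other at these regions only in part, since all 6 libraries chose them. For memory against naive cells, edgeR's quasi-likelihood test called 22 of the 126 higher at an adjusted p under 0.05, where 0.248% of all tested regions were called higher. Those 22 were 15.8% of the 139 regions called higher in memory than in naive cells across the whole table. For memory against effector cells, 114 were called higher, where 7.72% of all tested regions were. Both comparisons called 20 regions, and 10 regions, among them those in Arid1a and near Tlk1, were called in neither. These counts describe the choice and are no test of it. The first count fell to 1 without naive replicate 1, to 10 without naive replicate 2 and to 1 without memory replicate 2, and the second to 59 without effector replicate 1. Memory mean CPM was a median of 1.75 times the naive mean, from 1.36 to 6.38, and 1.91 times the effector mean, from 1.37 to 4.63.

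Effector and naive cells were not set against each other by the rule, although it held both under the memory level. The effector mean was the higher at 43 of the 126 regions, 34.1%, and the naive mean at 83. Among regions with a mean memory CPM of 5 or more, the effector mean was the higher at 45.2%. These means are CPM from raw totals, and the split moves with scaling. With TMM scaling, the log2 fold change of effector over naive was above 0 at 34 of the 126 regions. Both effector libraries were above both naive libraries at 21 regions, 16.7%, against 25.1% of regions with a mean memory CPM of 5 or more and 36.5% of all regions. They were below both naive libraries at 42, 33.3%, against 29.8% and 20.1%, and the pairs overlapped at 63. By edgeR, 3 regions were called higher in effector cells, 2.38%, where 11.5% of all tested regions were, and 9 were called lower, 7.14%, where 4.98% were. All tested regions were not cut by level as the 126 were, so these shares are not on equal terms. Single libraries moved the counts of calls. There were 0 higher and 3 lower calls without naive replicate 1, 2 and 3 without naive replicate 2, 0 and 2 without effector replicate 1, and 0 and 14 without effector replicate 2. The median log2 fold change of effector over naive was −0.19, against 0.00 over all tested regions and −0.13 over the regions with a mean memory CPM of 5 or more. The cap at the memory level removes regions that open strongly in effector cells, so a low share of higher calls is built into the choice.

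Among the 9 regions lower in effector cells, the region in Rnf125 is given above, with 10.2 and 15.2 CPM in effector and 23.9 and 24.2 in naive libraries. Its log2 fold change was −1.02 ± 0.19 (SE, edgeR adjusted p = 0.00172). The region 6.80 kb from Spink2, a protease inhibitor gene, had 28.3 and 29.8 CPM in memory, 12.7 and 13.2 in effector and 21.7 and 20.3 in naive libraries. Effector was −0.79 ± 0.17 relative to naive (edgeR adjusted p = 0.00437). These 2 were called under every alternative tried, and none of the other 10 calls was. Tdrd5, a germline Tudor-domain gene, held a region with 14.3 and 11.2 CPM in memory, 2.22 and 3.29 in effector and 6.63 and 6.74 in naive libraries. Its value was −1.37 ± 0.29 (edgeR adjusted p = 0.00384, and 0.0678 without effector replicate 1). The region in Adgrl2, an adhesion G-protein-coupled receptor gene, had 30.4 and 33.8 CPM in memory, 10.8 and 13.8 in effector and 18.4 and 18.98 in naive libraries. There effector over naive was −0.69 ± 0.18 (edgeR adjusted p = 0.0131). The adjusted p was 0.0673 when naive replicate 1 was left out, 0.05195 for naive replicate 2 and 0.147 for effector replicate 1. A region 8.18 kb from Lekr1 had 13.6 and 12.1 CPM in memory, 3.43 and 4.82 in effector and 7.17 and 7.69 in naive libraries. It differed by −0.94 ± 0.26 (edgeR adjusted p = 0.0207), and the adjusted p was 0.07095, 0.0801 and 0.192 when the same libraries were left out. The other 4 lay near or in Csnka2ip and in 3 places with no gene within 100 kb, with log2 values from −1.32 to −0.54, and each lost its call without at least 3 of the 4 single libraries.

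The 3 regions higher in effector cells had an order of memory, then effector, then naive, which the rule and the call together fix. The region in Med13, a subunit of the Mediator kinase module, had 4.67 and 6.31 CPM in memory, 2.56 and 2.99 in effector and 0.540 and 1.18 in naive libraries, which in naive cells rests on 7 and 20 counts. Effector was 1.55 ± 0.43 above naive (SE, edgeR adjusted p = 0.0199), but the adjusted p was 0.170 with naive replicate 1 left out, 0.0727 with effector replicate 1 and 0.0833 with effector replicate 2. The Gm33073 region, with the levels given above, had 0.72 ± 0.23 (edgeR adjusted p = 0.0420). A region 22.4 kb from Zbtb43, a zinc finger gene, had 8.003 and 10.1 CPM in memory, 5.98 and 5.73 in effector and 2.85 and 3.19 in naive libraries, and 0.86 ± 0.29 (edgeR adjusted p = 0.0486). The last 2 calls were lost without any 1 of the 4 effector and naive libraries, with adjusted p between 0.0727 and 0.224, and under DESeq2 (0.0707 and 0.0951). With RLE factors the Zbtb43 region had an edgeR adjusted p of 0.0515, and with no filter of 0.0502.

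**Figure D3:**
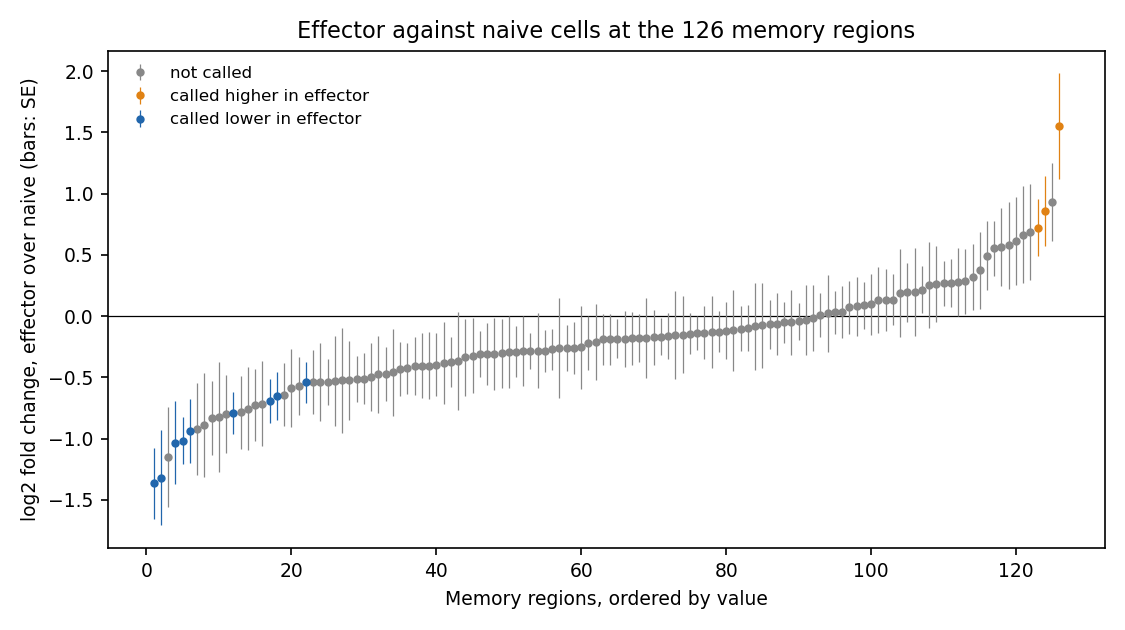
Log2 fold change of effector over naive cells with its standard error at the 126 memory regions, ordered by value. Blue points are the 9 called lower and orange points the 3 called higher in effector cells, and the median over the 126 is −0.19.

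Position was not used to choose the regions, although level was, and level moves with position. Of the memory regions, 120 lay away from gene ends. Gene end regions were those that touched or lay up to 1 kb from the start or end of a protein-coding gene, and 6 of 126 were of this kind, 4.76% (Wilson 95% interval 2.20% to 10%). The share was 37.1% among regions with a mean memory CPM of 5 or more and 24.3% among all regions. It was 8.31% among the regions most open in effector cells and 11.8% among those most open in naive cells. With a window of 500 bp the share of memory regions was 3.17%, and with 2 kb it was 6.35%, against 34.8% and 40.8% of regions with a mean memory CPM of 5 or more. The 6 lay at Dlc1, Lrrn3, 9130401M01Rik, Itgb2 (the β2 integrin chain), Tnfsf14 (the cytokine LIGHT) and Gpsm3. Genes wholly enclosed 73 memory regions, 57.9%, against 40.0% and 46.6% in the same 2 backgrounds. They enclosed 55.8% of the regions most open in effector cells and 46.2% of those most open in naive cells. A further 2 crossed a gene's edge, 40 lay outside genes at a median distance of 17.3 kb, and 11 had no protein-coding gene within 100 kb. Those 11 were 8.73%, against 4.30% and 5.41% in the 2 backgrounds. The share without such a gene was 6.25% in the effector set and 20.4% in the naive set. The median width was 1236 bp, against 1480 bp over regions with a mean memory CPM of 5 or more and 1203 bp over all regions. X and Y held 1 and 0 memory regions. The X share was 0.794%, against 2.49% and 2.41% in the 2 backgrounds.

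**Figure D4:**
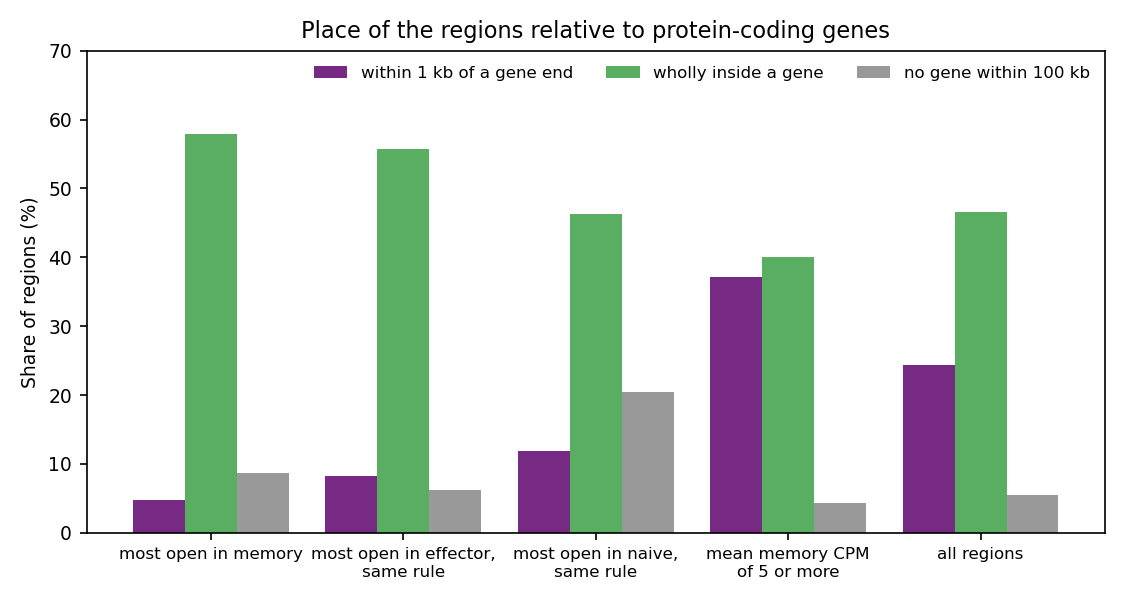
Share of regions (%) within 1 kb of a gene end, wholly inside a gene, or with no protein-coding gene within 100 kb, for the memory regions, the regions chosen by the same rule in effector and in naive cells, and 2 backgrounds. Gene ends hold 4.76% of memory regions and 24.3% of all regions.

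Most memory regions stood alone. Of the 126, 14 lay within 50 kb of another, or 11.1%, against 48.2% of the 4237 regions most open in effector cells and 13.98% of the 93 most open in naive cells. A larger set has more neighbours at the same density, so the 3 shares are not on equal terms. The 14 formed 6 groups. At Synpo2, which encodes an actin-binding protein, 3 regions inside the gene spanned 6.28 kb (chr3:123173619-123179894). Their levels were 22.2 and 20.4 CPM in memory, 14.99 and 13.2 in effector and 14.3 and 15.4 in naive libraries for the first, 8.34 and 8.16 CPM in memory, 3.83 and 5.92 in effector and 5.24 and 5.91 in naive libraries for the second and 10.9 and 15.1 CPM in memory, 6.52 and 5.92 in effector and 7.71 and 6.74 in naive libraries for the last. Effector and naive libraries overlapped at the first and second and, at the last, both effector libraries were under both naive libraries. The other 9 regions of Synpo2 had memory over naive log2 values from −1.11 to 0.50.

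Rbpj encodes the DNA-binding factor of Notch signalling, and 3 memory regions lay outside it, 49.6, 45.6 and 14.9 kb away, over 35.9 kb. The first (chr5:53504957-53506209) had 31.4 and 35.9 CPM in memory, 18.9 and 23.7 in effector and 19.1 and 22.2 in naive libraries. The second (chr5:53509269-53510153) had 26.7 and 45.6 CPM in memory, 13.9 and 18.7 in effector and 11.9 and 16.97 in naive libraries, with the memory libraries 1.71-fold apart. The third (chr5:53539716-53540888) had 15.8 and 21.03 CPM in memory, 10.96 and 10.9 in effector and 6.40 and 7.57 in naive libraries, and both effector libraries were above both naive libraries. Of the other 34 regions assigned to Rbpj, 12 had their highest mean in memory, and 6 were called higher in effector than in naive cells by edgeR. Memory had the highest mean at 36.2% of regions with a mean memory CPM of 5 or more and 23.9% of all regions. Among all tested regions, 11.5% were called higher in effector cells. The other regions of Rbpj were not cut by level. Pairs of memory regions lay at Tcf7, Aopep (an aminopeptidase), Lekr1 and St3gal2. Itpr1 (an intracellular calcium channel) and Xcl1 (the chemokine lymphotactin) were each the nearest gene of 2 memory regions more than 50 kb apart.

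**Figure D5:**
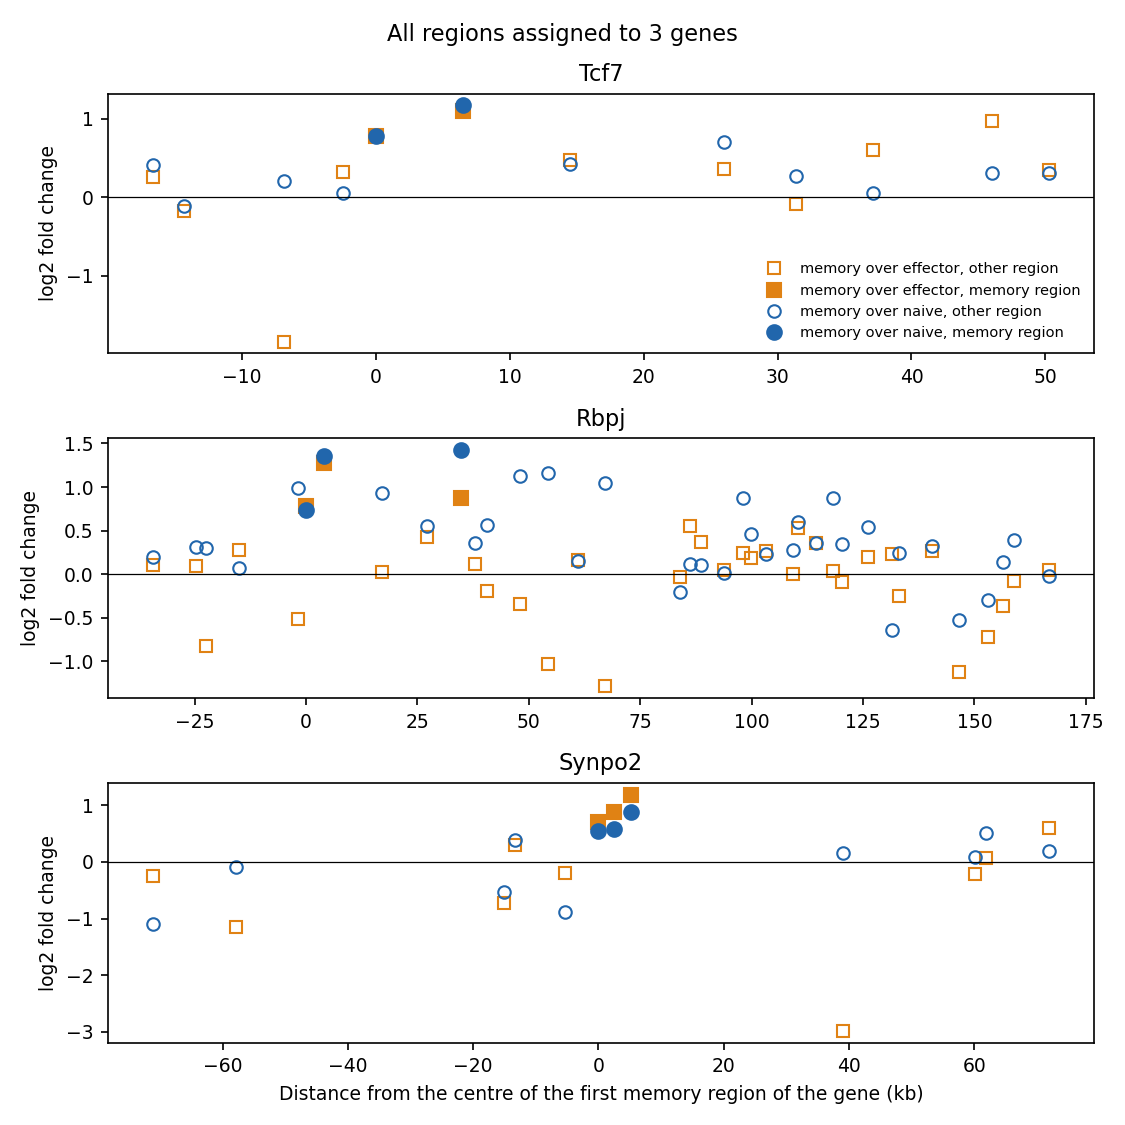
Log2 fold change of memory over effector (squares) and of memory over naive (circles) at every region assigned to Tcf7, Rbpj and Synpo2, against the distance in kb from the gene's first memory region, with memory regions filled. At Tcf7 and Synpo2 the lowest squares, at −1.84 and −2.99, are regions high in effector cells that lie outside the span of the memory regions.

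A region outside the set lay within 10 kb of 93 memory regions. These nearest regions were 90 different ones, since some were nearest to several memory regions. At 42 of the 90, 46.7%, memory had the highest mean, against 36.2% of regions with a mean memory CPM of 5 or more and 23.9% of all regions. Their median log2 fold change of memory over naive was 0.25, against 0.05 over the regions with a mean memory CPM of 5 or more. For memory over effector it was 0.15, against 0.17 over the same background. Over all tested regions the medians were −0.008 for memory over naive and −0.038 for memory over effector. The nearest regions were not limited by level. The same libraries measured the memory regions and these nearest regions.

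To see how far the rule carries to libraries it did not use, it was applied to 1 memory, 1 effector and 1 naive library, and the other 3 were read. On the replicate 1 libraries it chose 1090 regions, and in the replicate 2 libraries 68.7% of them had memory above both other states, against 37.7% of all regions at or above 5 CPM in memory replicate 1. The full ratio of 1.3 was met again by 26.1%, against 3.42%. The median ratio of the chosen regions was 1.42 where they were chosen and 1.12 where they were read, against 0.953 for the background there. On the replicate 2 libraries the rule chose 1232 regions, of which 64.8% had memory above both in replicate 1, against 33.4%, and 25.6% met the ratio, against 3.45%. The median ratio was again 1.42 where chosen, and 1.11 where read, against 0.917. These shares belong to the regions chosen in each split. The memory regions described above were chosen with every library, so no library was left in which to read them. The shares are therefore no rate of replication for those memory regions.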

How the data were processed

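ATAC-seq counts of 6 libraries, 2 for each of memory, effector and naive lung ILC2s, were used as deposited. The authors' deposited table gives raw counts per region for 57203 regions, with total counts per library of 11995095 to 20591102. The submitters' processing notes name edgeR 3.34.0, deepTools 3.5.4, ChIPseeker 1.28.3, bedtools 2.31.1, MACS2, Bowtie2 2.5.3 and fastp, and the build mm10. How regions were merged, whether reads, fragments or insertions were counted, how duplicates were handled and whether starts count from 0 or 1 is not given in the sources used here. Such choices scale counts and could move a region near a threshold.

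The choice of regions used CPM from raw totals. Fold changes come from edgeR 4.0.16 in R 4.3.3: filterByExpr by group (56007 regions tested, 1196 removed, all 126 memory regions kept), TMM scaling, trended dispersion and a robust quasi-likelihood fit of all 6 libraries with a term per group. Each pair of groups was tested two-sided, a call being a Benjamini-Hochberg adjusted p under 0.05 over all tested regions. A standard error is the ratio of the log2 fold change to the root of F. Each region took the nearest protein-coding gene (21896 in GRCm38.p6) within 100 kb (94.6% of regions). Motifs were searched as exact letters on both strands. The Wilson interval of a share of regions treats regions as independent and covers no other error.

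On simulated counts for effector against naive over 55574 regions, the fit recovered 37% of regions changed 2-fold and 68% of those changed 3-fold. Only 100 regions were changed at each fold, whereas 11.5% and 4.98% of tested regions were called higher and lower in the data. The Benjamini-Hochberg cut depends on the number changed, so these shares do not give the recovery in the data. The regions and gene lists were chosen with earlier results of these data known. Regions were named by rule: the 10 highest by level, the 10 highest by ratio, up to 3 per list, up to 5 called in each direction for effector against naive, those next to the thresholds, and genes with 3 or more. Other regions given with values were chosen after their values were seen. Alternatives were RLE factors, total counts alone, no filter, no robust estimation, DESeq2 1.42.0, only the 2 groups compared, a replicate block, leaving out each library, a stricter adjusted p and other thresholds in the rule.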

Additional observations from a re-analysis of the deposited data

How the results depend on the processing

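The number of regions met by the rule was 202 with TMM-scaled CPM and 245 with RLE-scaled CPM (124 of the 126 shared with each), 284 and 34 at ratios of 1.2 and 1.5, 192 and 73 at mean memory CPM of 2 and 10, and 730 with group means in place of single libraries. Without single libraries it ran from 166 to 820, the highest without memory replicate 1. Regions of listed genes numbered 12, and 21 with TMM-scaled CPM. Of regions chosen on replicate 1, 68.7% kept memory above both in replicate 2, and 71.6%, 72.3% and 77.7% with TMM scaling, a ratio of 1.5 and a CPM of 10. The values chosen on replicate 2 were 64.8%, and 67.7%, 71.0% and 71.0%. For effector against naive cells the main counts were 3 higher and 9 lower. Higher calls numbered 1 with only the 2 groups compared, 1 with DESeq2 and 0 at an adjusted p under 0.01, and ran from 0 to 2 without single libraries. Lower calls numbered 3 at an adjusted p under 0.01 and ran from 2 to 14 without single libraries, the highest without effector replicate 2. Calls for memory over naive numbered 22, 35 with DESeq2 and 4 at an adjusted p under 0.01, and ran from 1 to 23 without single libraries. Calls for memory over effector numbered 114 and ran from 59 to 89 without single libraries. The labels do not say what a shared replicate number means. Same-numbered libraries deviated together with r of 0.24, 0.27 and 0.19 for the 3 pairs of states over 56007 regions, but there are only 2 pairs. With the replicate number as a block, 5 higher and 21 lower calls were made for effector against naive, 81 for memory over naive and 123 for memory over effector. Directions of the 8 named effector against naive calls were kept in all 88 alternative values, and 24 of these were no longer calls. The cause of these changes was not tested. Depth limits the weakest regions, which held 7 to 44 counts in replicate 1 libraries, and 2 libraries per state leave 3 residual degrees of freedom.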
